A study of Mus musculus with 2 samples.

Results

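The genes of 10 inflammatory cytokines and cytokine antagonists were followed through the H3K27ac-anchored chromatin contacts of mouse microglia: Il1a, Il1b, Il1rn, Tnf, Lta, Ltb, Il6, Il10, Osm and Lif. An interaction belonged to a gene when 1 of its 10 kb anchors overlapped the gene's mm10 span with 1 kb on each side. By this rule the 10 genes, of 21887 protein-coding genes, held 22 of the 19061 called interactions of the sham library and 46 of the 42905 of the day 6 library. All 10 had an interaction in at least 1 library, and 9 had at least 3 in 1 of them. The libraries came from wild-type male C57BL/6J mice of 8 to 24 weeks. One was made from sham-operated mice, in which the artery was not occluded, and 1 from mice at day 6 after MCAO, in which a filament blocked the middle cerebral artery for 60 minutes before reperfusion, a model of ischemic stroke. Each used 200000 to 300000 cells that were sorted as CD45(int)CD11b(int) from the forebrain, taken from the hemisphere that was operated. The sources used here do not give the number of animals behind a library. With 1 library per condition, library and condition cannot be told apart.

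Interleukin 1 alpha and beta, encoded by Il1a and Il1b, act on the same receptor, and the product of Il1rn blocks that receptor. Tumour necrosis factor (Tnf) and the lymphotoxins (Lta and Ltb) are neighbours in the major histocompatibility complex, and Lta and Ltb are best known from lymphocytes. Interleukin 6, oncostatin M (Osm) and leukemia inhibitory factor (Lif) signal through receptors that share the Il6st chain, and interleukin 10 restrains inflammatory macrophages. In microglia these genes respond to pattern-recognition receptors and to cytokines, mainly through NF-kB, AP-1 and C/EBP transcription factors. H3K27ac marks active promoters and enhancers, so the assay, HiChIP, reports which acetylated segments were captured in contact with each other and not how much of a cytokine was made.

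The 250 bases before the transcription start are shown for 5 genes on which the results turn, to show where the start of each gene lies and which motif letters it holds. Il1a and Il1b contacted each other, Tnf had its contacts split between a start bin and an end bin, Il6 had fewer contacts at day 6, and Il1rn had interactions at day 6 alone. The sequences are RefSeq's of GRCm38.p6, which is the assembly of mm10, and are printed 5′ to 3′ on the strand of the gene. Capitals mark matches, on either strand, to 6 motifs. The NF-kB motif was GGGA and CC with any 4 bases between them, and that of AP-1 was TGANTCA. The C/EBP motif was TTGCNNAA, and the TATA box was TATAAA. A CRE was searched as TGACGTCA, and an ETS motif as GAGGAAGT.
Il1a, chr2:129309973-129310222, minus strand: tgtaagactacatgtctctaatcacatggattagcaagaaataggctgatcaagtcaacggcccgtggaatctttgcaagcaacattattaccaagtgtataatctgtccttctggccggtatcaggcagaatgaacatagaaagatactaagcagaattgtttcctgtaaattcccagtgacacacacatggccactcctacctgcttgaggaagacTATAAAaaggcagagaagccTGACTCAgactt
Il1b, chr2:129371140-129371389, minus strand: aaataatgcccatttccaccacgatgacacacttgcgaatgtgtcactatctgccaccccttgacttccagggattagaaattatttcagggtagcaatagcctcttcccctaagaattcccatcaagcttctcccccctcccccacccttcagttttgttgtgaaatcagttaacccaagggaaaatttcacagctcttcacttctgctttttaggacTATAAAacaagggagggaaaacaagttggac
Tnf, chr17:35202008-35202257, minus strand: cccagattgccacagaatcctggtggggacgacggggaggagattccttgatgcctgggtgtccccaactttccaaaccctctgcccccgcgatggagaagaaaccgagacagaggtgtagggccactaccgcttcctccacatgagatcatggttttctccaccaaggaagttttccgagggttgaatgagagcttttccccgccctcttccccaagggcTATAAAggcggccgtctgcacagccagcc
Il6, chr5:30012864-30013113, plus strand: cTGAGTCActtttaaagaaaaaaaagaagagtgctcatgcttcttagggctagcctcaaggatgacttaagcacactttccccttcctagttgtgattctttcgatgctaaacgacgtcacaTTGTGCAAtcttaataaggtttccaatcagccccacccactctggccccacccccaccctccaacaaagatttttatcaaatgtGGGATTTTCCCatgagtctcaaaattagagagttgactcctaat
Il1rn, chr2:24336610-24336859, plus strand, the first of 3 listed starts: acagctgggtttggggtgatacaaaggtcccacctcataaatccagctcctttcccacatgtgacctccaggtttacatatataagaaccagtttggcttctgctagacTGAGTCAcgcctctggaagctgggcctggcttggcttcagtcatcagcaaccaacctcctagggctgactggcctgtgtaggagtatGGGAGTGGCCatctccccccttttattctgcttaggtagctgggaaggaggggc

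The table of starts held 10 windows for 8 of the 10 genes, and Osm and Il10 were not among them. The NF-kB letters were found before Il1rn, Il6, Lif and Ltb, that is in 4 of 8 genes. By windows they were found in 4 of the 10, and in 17.6% of all 32817 windows of the same length. In Il6 the matches on both strands overlapped and were 1 stretch of letters. The AP-1 letters were found before 4 genes (Il1a, Il1rn, Il6 and Lif), in 4 of the 10 windows, and in 6.75% of all windows. The TATA letters were found before Il1a, Il1b, Lta and Tnf, in 4 of the 10 windows, and in 12.4% of all windows. Il6 alone of the 8 held the C/EBP letters, in 1 of the 10 windows, and 9.57% of all windows held them. The CRE letters (1.55% of all windows) and the ETS letters (2.44%) were found before none of the 8 genes. A match describes these letters in this window and no more.

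Values below are counts of called interactions and of contacts, that is read pairs that join both bins of an interaction, summed over all interactions of a gene. Their 95% intervals are exact Poisson intervals, which cover counting error only. The caller listed pairs of bins 20 to 2000 kb apart with a q-value under 0.001, so shorter contacts and pairs under this threshold have no value. The log2 ratio of day 6 over sham compares a gene's share of all called contacts, after a prior of 5 contacts. A gene with at least 3 interactions in 1 library counted as having more contacts at a log2 ratio of at least 1, and fewer at -1 or less. This rule of size stands in for a test, which 1 library per condition does not allow. Some genes reach 3 interactions in 1 library alone, and this can be the library where their contacts are higher. The filter and the call of such a gene are then not independent, here and in the gene lists below.

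The sham list held 501608 contacts in all and the day 6 list 1074041, a ratio of 2.14. The 10 markers of microglia all had interactions in both libraries, with 2531 contacts summed in sham and 2761 at day 6. By the rule of size 6 of these 10 had fewer contacts, 0 had more and 4 neither, with a median log2 ratio of -1.14. Over all genes 10.3% had fewer and 39.1% more, with a median of 0.54. The marker calls are given for the scaling by called contacts alone. Of 10 markers of monocytes and border macrophages, 3 had interactions in sham and 6 at day 6, with 320 and 505 contacts. Ly6c2, Chil3, Cd163 and Clec12a had none in either library. Of 8 neutrophil markers 1 had interactions in sham and 2 at day 6 (32 and 141 contacts), and S100a8, S100a9, Ly6g, Retnlg, Mmp8 and Camp had none. Of 11 markers of T, NK and B cells 10 were among the coding genes (Trac was not), 3 had interactions in sham and 5 at day 6 (280 and 568 contacts), and Cd3e, Cd8a, Nkg7, Klrb1c and Ncr1 had none in either. Endothelial markers (4 of 6 in each library, 117 and 461 contacts) and markers of astrocytes, oligodendrocytes and neurons (6 of 11 in each, 585 and 834 contacts) were present as well. Of these lists Cxcr2 (0 and 91 contacts), Ms4a1 (0 and 54) and Mog (0 and 52) had more contacts by the rule of size. So did Pecam1 (35 and 181) and Flt1 (28 and 138). Ccr2 (144 and 77), Rbfox3 (132 and 71) and Slc17a7 (85 and 31) had fewer. Of the 29 markers with at least 3 interactions, microglia included, 5 had more contacts (39.1% of all genes) and 9 fewer (10.3%). Anchors on a marker can belong to a neighbouring gene, the part of other cells in the values below was not tested, and fewer cells of a type cannot be told apart from less signal per cell.

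The cytokine genes differed from each other in direction. By unscaled contacts Ltb was lower at day 6, Il1a, Tnf and Il6 had counts whose intervals overlapped, and Il1b, Lta, Osm and Lif were higher, while Il1rn and Il10 had interactions at day 6 alone. The day 6 list held 2.14 times the contacts of the sham list. As shares of called contacts, Il1b (log2 ratio -0.25, -0.59 to 0.08) and Lta (0.04, -0.35 to 0.43) had intervals that held 0. By the rule of size 3 of the 9 genes with at least 3 interactions had fewer contacts (Tnf, Ltb and Il6), against 10.3% of the 9638 genes measured in the same way. Of the 9, 1 had more contacts (Il1rn), against 39.1% of all. The other 5 lay between. Ltb and Il6 reached 3 interactions in sham alone (4 in sham and 2 at day 6 for each). Il1rn reached them at day 6 alone (0 in sham and 4 at day 6). The median log2 ratio of the 9 was -0.25, and that of all genes was 0.54 (interquartile range -0.34 to 1.99). Tnf and Ltb share a bin, so their calls are not independent of each other. The markers of microglia moved in the same direction as the genes with fewer contacts, with the counts given above, and their part in these calls was not tested.

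The counts rest on the scaling and, for single genes, on the span and the length of the list. Over all genes, 3769 had more contacts and 995 fewer. With scaling by the contacts of interactions called in both libraries these were 6389 and 186, and with scaling by the contacts that the caller modelled 8094 and 79. With lists of equal length they were 1875 and 1115. No cytokine gene had fewer contacts by the rule in the first pair of these scalings. In them 4 genes (Il1rn, Lta, Osm and Lif) and 5 genes (the same and Il1b) had more, where 66.3% and 84.0% of all genes did. With lists of equal length Tnf had a log2 ratio of -0.80 and no longer counted as having fewer contacts. With a flank of 5 kb on each side Ltb had 494 contacts in sham and 562 at day 6, a log2 ratio of -0.90, and did not count either. At the stricter q-value Ltb and Il6 had too few interactions for the rule.

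**Figure D1:**
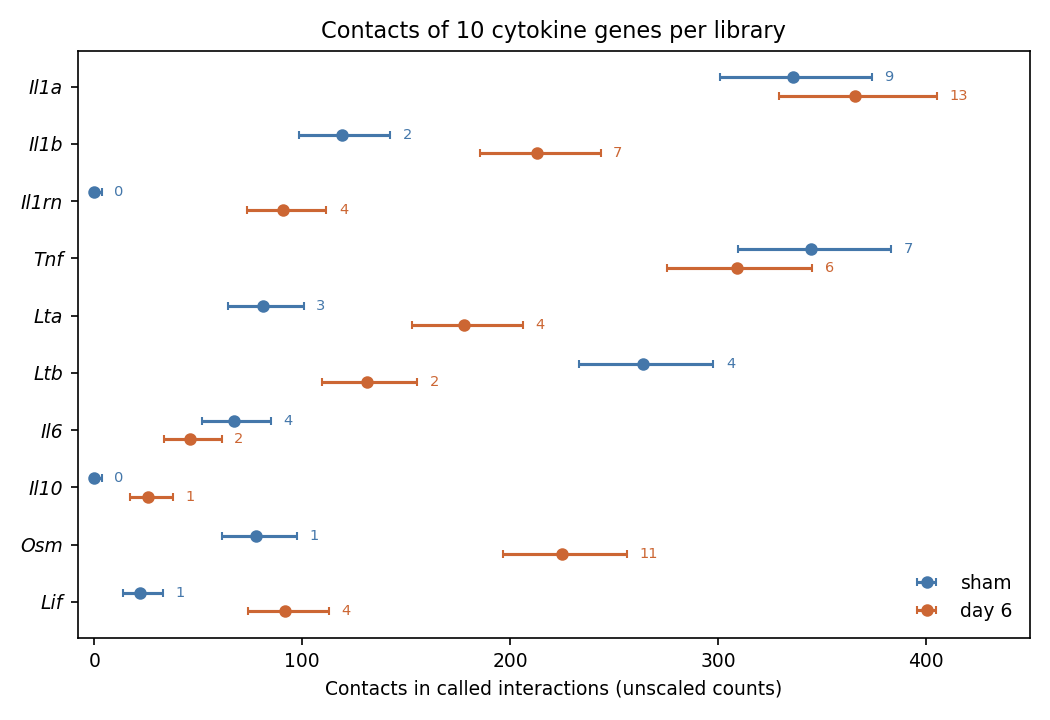
Contacts in called interactions (horizontal axis, unscaled counts) of each cytokine gene in the sham and the day 6 library, with exact 95% Poisson intervals as bars and the number of interactions beside each point. The intervals do not overlap for Il1b, Lta, Ltb, Osm and Lif and overlap for Il1a, Tnf and Il6, and Il1rn and Il10 have interactions at day 6 alone.

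Il1a and Il1b lie next to each other on chromosome 2 and contacted each other in both libraries. Il1a (129299609 to 129310186) had 9 interactions with 336 contacts (301 to 374) in sham and 13 with 366 (329 to 405) at day 6. This is a log2 ratio of -0.96 (counting interval -1.19 to -0.76), just short of the limit for fewer contacts. Il1b (129364569 to 129371164) had 2 interactions with 119 contacts (98.6 to 142) in sham and 7 with 213 (185 to 244) at day 6, a log2 ratio of -0.25 (-0.59 to 0.08). Contacts of Il1b were thus 1.79 times as many at day 6, below the 2.14-fold ratio of the whole lists.

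In sham every interaction of Il1b led to Il1a. The Il1a bin from 129310001 to 129320000 joined the Il1b bin at 129360001 with 50 contacts, and the Il1b bin at 129370001, which holds the Il1b start, with 69. At day 6 the first of these was called again with 46 contacts. The second was not in the day 6 list, although both of its bins were anchors there. The neighbouring Il1a bin, from 129300001 to 129310000, joined the Il1b start bin at day 6 with 32 contacts. The listed Il1a start at 129309972 lies close to the border of these Il1a bins.

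The strongest contact of Il1a in either library led past Il1b, to the bin from 129380001 to 129390000, which follows the Il1b start bin and touches no coding gene. It had 73 contacts in sham and 62 at day 6, at 3.62 and 4.04 times the count that the caller expected. Whether Il1b itself contacted this bin could not be seen, since the pair is under 20 kb apart. At day 6 Il1b did contact the bin at 129390001, 20 kb from its start bin, with 37 contacts, and the bin at 129330001 on the side of Il1a with 35. Neither pair was called in sham, where the bin at 129330001 was no anchor. Il1a also joined the bin at 129330001 at day 6, with 46 contacts, and joined the bin at 129350001 with 22.

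Farther contacts of Il1a pointed to Sirpa, the inhibitory receptor of phagocytes that binds CD47. The Sirpa bin at 129590001, 280 kb away, had 21 contacts with Il1a in each library. Sham also held a contact to a second Sirpa bin at 129630001 (17 contacts), and contacts to F830045P16Rik (22) and to a bin with no coding gene in it at 129550001 (17), which day 6 did not list. Day 6 held 3 contacts of Il1a over more than 1 Mb, to Pced1a, Atrn and Ap5s1, with 13 contacts each. For Il1b the day 6 list added Slc20a1, a phosphate transporter gene 170 kb away (31 contacts, 6.57 times the expected count), Pdyn, which encodes the prodynorphin opioid precursor (20 contacts at 340 kb), and the bin of the neuropeptide genes Oxt and Avp (12 contacts at 1200 kb).

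**Figure D2:**
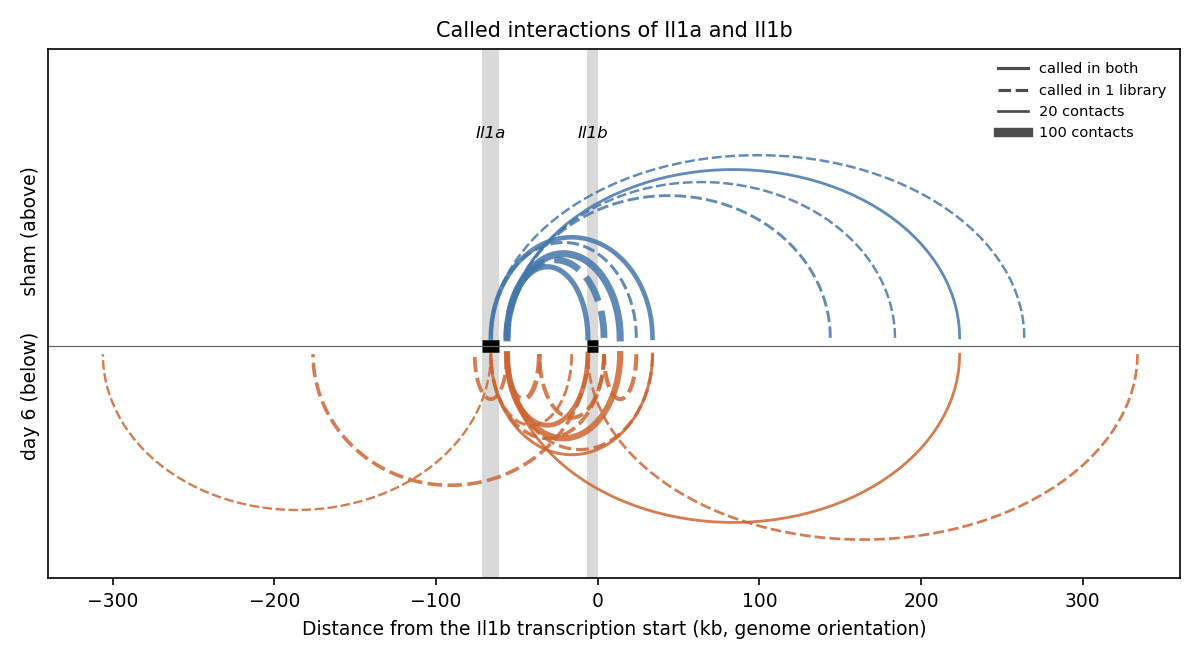
Called interactions of Il1a and Il1b by distance from the Il1b start (horizontal axis, kb), sham above and day 6 below the line. Each arc joins the middles of 2 bins, its width grows with its contacts, its height with the square root of its span, and grey bands are the genes. The 4 solid arcs above the line and the 4 below it were called in both libraries, and the 4 day 6 interactions over 1 Mb lie outside the frame.

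Il1rn, the gene of the interleukin 1 receptor antagonist, lies in another part of chromosome 2 (24336860 to 24351491). None of its 3 bins was an anchor in the sham list. At day 6 it had 4 interactions with 91 contacts (73.3 to 112). The strongest joined its second start bin to the bin of Psd4, 20 kb away, with 46 contacts at 3.96 times the expected count. The other 3 had 19 contacts (a bin with no coding gene in it 20 kb away) and 13 each (Man1b1 and Dpp7 at 1010 kb, and the bin of Nelfb, Stpg3 and Fam166a at 860 kb). No partner of Il1rn was an anchor in sham. With the stricter q-value limit or with lists of equal length only the contact to Psd4 was left, and Il1rn then had too few interactions for the rule. Interactions at day 6 alone were found for 2 of the 10 cytokine genes and for 31.7% of all genes with any interaction.

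Tnf, Lta and Ltb lie side by side on chromosome 17, in 2 bins. The lower bin, 35190001 to 35200000, holds Ltb and the end of Tnf, and the upper bin, 35200001 to 35210000, holds the starts of Tnf and of Lta. In the lower bin contacts were lower at day 6, with 264 in 4 interactions in sham and 131 in 2 at day 6. In the upper bin they were higher, with 81 in 3 and 178 in 4. The gene values follow from these bins. Ltb (35194507 to 35196305) had 264 contacts (233 to 298) against 131 (109.5 to 155), log2 ratio -2.05 (-2.42 to -1.80), with 1.78% of the 9638 genes lower. Lta (35203165 to 35205578) had 81 (64.3 to 101) against 178 (153 to 206), log2 ratio 0.04 (-0.35 to 0.43). Tnf (35199367 to 35202007), with both bins, had 345 (309.6 to 383) against 309 (276 to 345), log2 ratio -1.24 (-1.48 to -1.03). When Tnf was counted by its start bin alone its log2 ratio was 0.04, so that its count among the genes with fewer contacts rests on the bin it shares with Ltb.

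The steady contacts of this cluster led to Aif1, which encodes the microglial protein Iba1. The lower bin joined an Aif1 bin, 20 kb away, by 103 contacts in sham and 112 at day 6. The upper bin joined the bin of Prrc2a and Aif1, 40 kb away, with 44 and 38. Contacts to the other side led to Nfkbil1 and Atp6v1g2, a subunit gene of the vacuolar proton pump, and here the bin of the cluster changed between the libraries. In sham the lower bin contacted the bin of Nfkbil1 and Atp6v1g2 at 35230001 with 54 contacts, and the bin of Nfkbil1 at 35210001 with 88. At day 6 neither of these was called, and the upper bin with the Tnf start contacted the bin at 35230001 with 108 contacts, 2.97 times the expected count. This was the smallest q-value of any interaction of the 10 genes, at a -log10 of 18.6, and the pair was not called in sham.

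Longer contacts of the cluster had lower counts, but stood higher over the count that the caller expected. In sham the upper bin joined Vwa7, Sapcd1 and Msh5 (23 contacts at 180 kb) and Dxo, Skiv2l and Nelfe (14 at 360 kb). At day 6 it joined H2-Ob, a class II gene 960 kb away (14 contacts), and Vps52 at 1240 kb (18 contacts). These sham contacts were 5.08 and 4.49 times the expected count, and the day 6 ones 4.13 and 5.93 times. The lower bin contacted adjoining bins of Vars, the valine tRNA synthetase gene, with 19 contacts in each library (3.79 and 3.57 times). The contacts to Aif1 were 1.93 times the expected count in sham and 2.36 at day 6 for the lower bin. For the upper bin they were 2.53 and 2.06 times. Beside Lta and Ltb, genes known from lymphocytes, the markers of T, NK and B cells had the values given above, with Cd3e, Cd8a and Nkg7 at 0 interactions in both libraries.

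**Figure D3:**
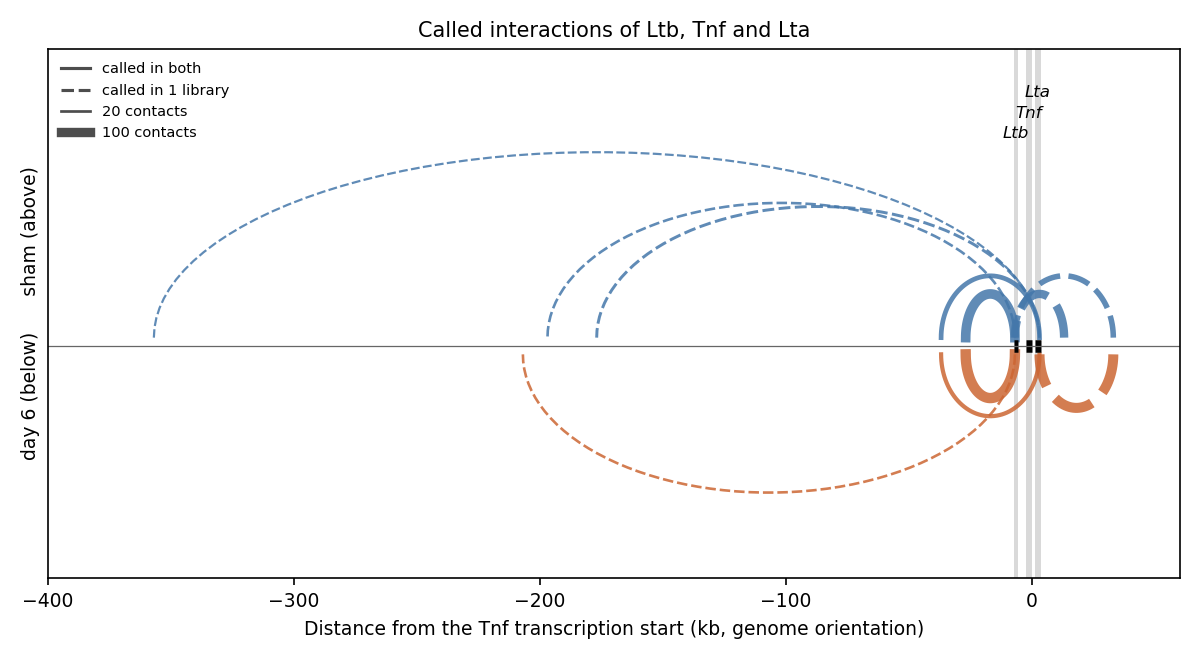
Called interactions of Ltb, Tnf and Lta by distance from the Tnf start (horizontal axis, kb), sham above and day 6 below the line, with arcs drawn as in the plot of the Il1a and Il1b locus. The solid arcs to Aif1 were called in both libraries, the widest dashed arc below the line is the day 6 contact of 108, and the day 6 contacts at 960 and 1240 kb lie outside the frame.

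Il6 (chromosome 5, 30013114 to 30019975) had few contacts, in called pairs that differed completely between the lists. Their median count was 5.03 times the expected one in sham and 3.97 times at day 6. For all interactions these medians were 4.21 and 4.16. It had 4 interactions with 67 contacts (51.9 to 85.1) in sham and 2 with 46 (33.7 to 61.4) at day 6, a log2 ratio of -1.51 (-2.21 to -1.08), with 4.51% of the 9638 genes lower. The sham interactions joined the Il6 start bin to 2 bins of Dnajb6, a chaperone gene 230 to 240 kb away (13 and 19 contacts), to a bin with no coding gene in it at 190 kb (17) and to the bin of Garem2 and Hadha at 100 kb (18). At day 6 Il6 joined 2 bins with no coding gene in them, 20 kb (31 contacts) and 170 kb (15 contacts) away. All partners were anchors in both lists, but no interaction was called in both. Coverage of the Il6 start bin was lower at day 6 as well, with 1058 reads in sham and 540 at day 6.

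Il10 (chromosome 1, 131019845 to 131024970) had 1 interaction, at day 6. It joined a bin with no coding gene in it 90 kb away (131110001 to 131120000) with 26 contacts (17.0 to 38.1), at 4.17 times the expected count. In sham that partner was an anchor, and the bins of Il10 were not. Il10 had too few interactions for the rule of size.

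Osm and Lif are neighbours on chromosome 11 and both had more interactions at day 6. Osm (4236785 to 4241026) had 1 interaction with 78 contacts (61.7 to 97.3) in sham, to the bin of Castor1, an arginine sensor gene 20 kb away. At day 6 it had 11 with 225 contacts (197 to 256), a log2 ratio of 0.42 (0.05 to 0.82). The contact to Castor1 was not called at day 6, where the Castor1 bin was no anchor. The bin from 4230001 to 4240000, which was no anchor in sham, carried 9 of the 11 day 6 interactions and 192 of the contacts. Its coverage of 3152 reads was 3.94 times the unit of the library and above that of 99.5% of the day 6 anchors.

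The day 6 partners of Osm were spread over a wide span, from 120 to 1550 kb away (median 600 kb), and each had 14 to 31 contacts. They held Sec14l2 (31 contacts), Mtfp1 (28), Slc35e4 and Tcn2 (26), Nipsnap1 (22), Uqcr10 and Zmat5 (21), Morc2a (19), Smtn (17), Ewsr1 and Rhbdd3 (15), Dbnl (15) and Nf2, the merlin tumour suppressor gene (14). The bins of Ewsr1 and of Dbnl were themselves among the anchors of highest coverage at day 6, at 6.17 and 4.86 times the unit of the library. With lists of equal length Osm had 4 interactions with 88 contacts at day 6 and a log2 ratio of -0.10. With the stricter q-value limit it had none in sham and 7 with 150 contacts at day 6.

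Lif (4257568 to 4272514) had 1 interaction with 22 contacts (13.8 to 33.3) in sham and 4 with 92 (74.2 to 113) at day 6, a log2 ratio of 0.87 (0.28 to 1.71). All of them used its start bin. The sham interaction led to Sec14l2, 140 kb away, and at day 6 the same Sec14l2 bin was called with Osm and not with Lif. The day 6 partners of Lif were Rnf215 and Mtmr3, a phosphoinositide phosphatase gene (27 contacts each, at 120 and 340 kb), Hormad2 (22 at 130 kb) and a bin with no coding gene in it (16 at 200 kb). With lists of equal length the log2 ratio of Lif was 1.34, past the limit for more contacts.

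**Figure D4:**
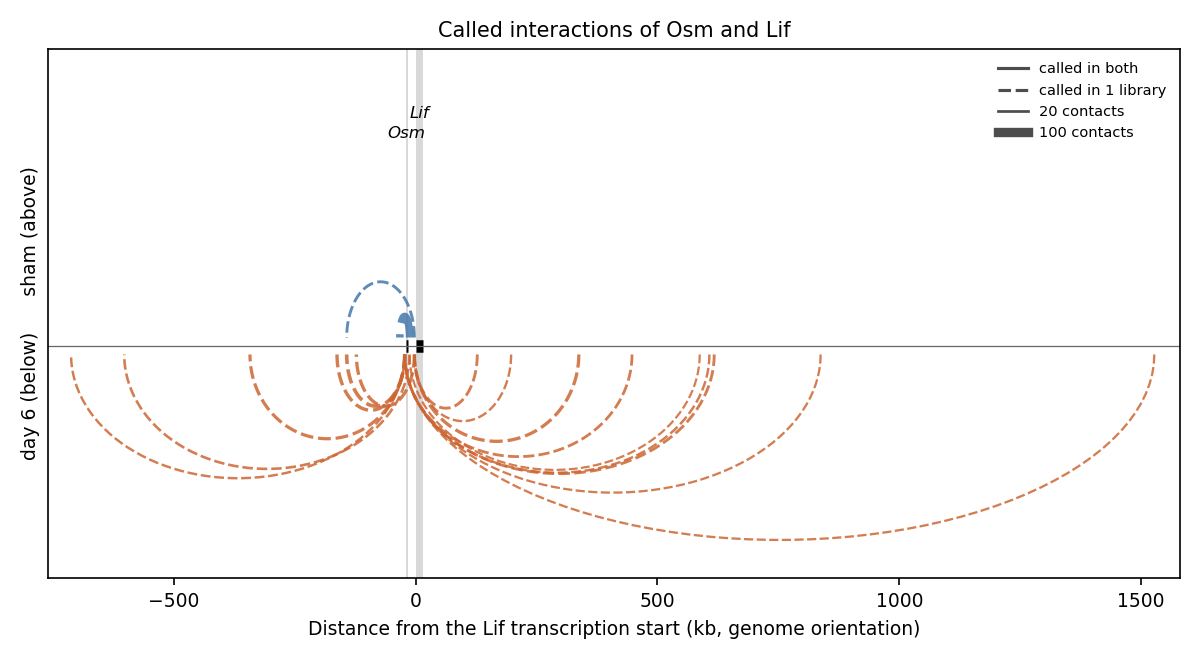
Called interactions of Osm and Lif by distance from the Lif start (horizontal axis, kb), sham above and day 6 below the line, with arcs drawn as in the plot of the Il1a and Il1b locus. Sham held 2 interactions and day 6 held 15, none of them called in both libraries.

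Coverage of the gene bins gave a second measure, as reads per bin relative to a unit of each library, 1099 reads in sham and 799 at day 6. Of the 19 bins of the 10 genes, 9 were anchors in sham, all of which were anchors at day 6, and 6 more were anchors at day 6 alone. The upper bin of the Tnf cluster went from 1.35 to 1.88 in relative coverage and the lower bin from 1.26 to 1.71, log2 differences of 0.48 and 0.44, above 89.6% and 88.0% of the 16670 anchors common to both lists. The lower bin thus had higher relative coverage at day 6 beside fewer contacts. The Il6 bin went from 0.962 to 0.676, a log2 difference of -0.51 with 6.04% of common anchors lower. The Il1b start bin (1.46 and 1.66, log2 0.18), the other Il1b bin (log2 -0.15), the Il1a bins (log2 -0.14 and 0.16), the Lif start bin (1.23 in both, log2 0.00) and the Osm bin at 4240001 (log2 0.32) lay nearer to the median of all common anchors, -0.03. These differences have no replicate check.

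Of the interactions of the 10 genes, 6 were called in both libraries, which is 27.3% (95% binomial interval 10.7 to 50.2%) of the 22 in sham and 13.04% (4.94 to 26.3%) of the 46 at day 6. For all interactions the shares were 24.6% and 10.9%, inside these intervals. The binomial intervals here and below treat interactions as independent, although many share a gene bin. Only 9 gene bins were anchors in sham and 15 at day 6, so the intervals cannot serve as a test. The 6 were the 4 of Il1a named above, with Il1b, the bin behind Il1b, Sirpa and a bin with no coding gene in it at 129400001, and the 2 of the Tnf cluster with Aif1. Their contacts at day 6 were 0.535 to 1.09 times those in sham, the lowest being the Il1a contact with the bin at 129400001 (43 in sham and 23 at day 6). With anchors allowed to differ by 1 bin, 14 of the 22 sham interactions had a match, which is 63.6% (40.7 to 82.8%) against 57.4% of all sham interactions.

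The bins of most sham interactions were still anchors at day 6, as for interactions in general. In 21 of 22 sham interactions both bins were anchors at day 6 too, the exception being that of Osm with Castor1, whereas in 19 of 46 day 6 interactions both bins were anchors in sham. These are 95.5% and 41.3%, and the shares over all interactions were 86.0% and 44.8%, inside the 95% binomial intervals of the cytokine genes' shares. The median distance was 120 kb in sham and 185 kb at day 6. None of the 22 sham interactions spanned more than 1 Mb (upper limit 15.4%), and 7 of the 46 at day 6 did (15.2%, 6.34 to 28.9%). In all interactions these shares were 2.68% and 9.45%. The 7 belonged to Il1a (3), Il1b, Il1rn, Osm and the start bin of Tnf and Lta, with 12 to 18 contacts each.

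**Figure D5:**
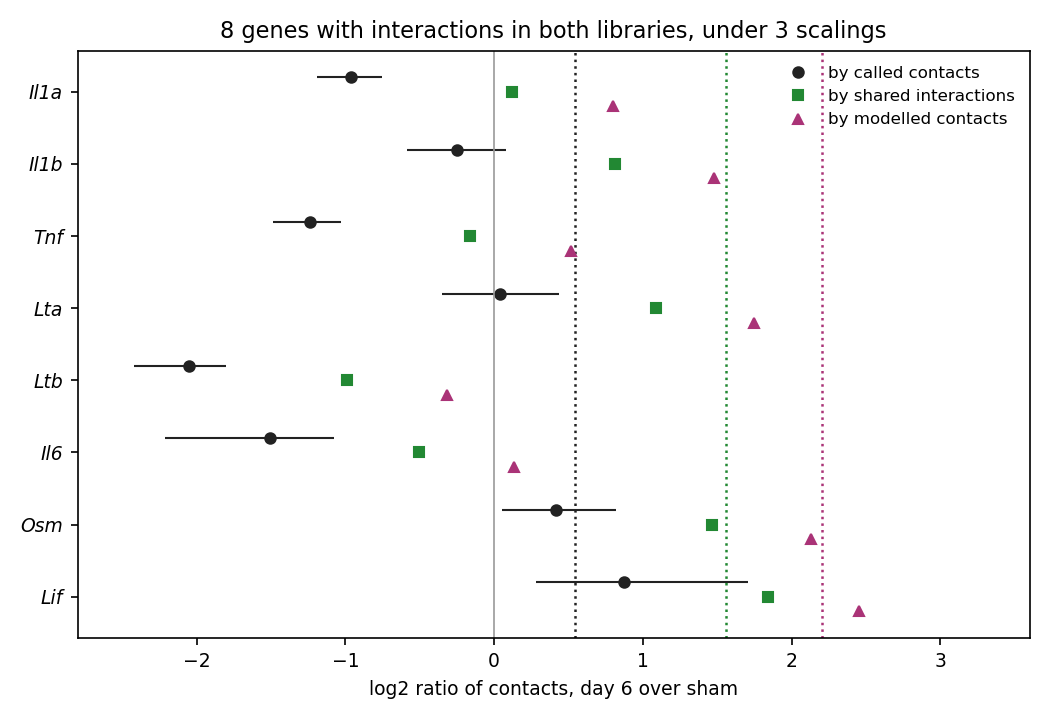
Log2 ratio of contacts, day 6 over sham (horizontal axis), of the 8 genes with interactions in both libraries under 3 scalings, with the interval by counting error for the scaling by called contacts and the median of all genes with at least 3 interactions as a dotted line in the same colour. Ltb, Il6 and Tnf had the lowest ratios in each scaling, and the ratio of Ltb alone was below 0 in all 3.

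Genes that receive, process or accompany these cytokines were counted from a list. Of its 46 genes, 22 had interactions in sham and 32 at day 6, and 25 had at least 3 in 1 library. Of these 12 had more contacts at day 6 (against 39.1% of all genes), 6 had fewer (against 10.3%) and 7 lay between, with a median log2 ratio of 0.98. The number with more was 3 with lists of equal length, 5 at the stricter q-value and 5 with start site bins alone. Of all genes 30.1%, 47.6% and 43.1% had more in these settings, where 6236, 5988 and 5155 had at least 3 interactions, against 9638. The number with fewer was 2 with scaling by shared interactions (1.93% of all genes) and 1 by modelled contacts (0.82%). It was 3 at the stricter q-value (12.6%) and 2 with start site bins alone (11.7%). How many of the 46 genes had at least 3 interactions in each setting is not given, so these counts are not shares.

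Receptors had calls in both directions. Among 9 with at least 3 interactions, 3 had more, 3 fewer and 3 neither, with a median log2 ratio of -0.75. Over all genes 39.1% had more and 10.3% fewer, with a median of 0.54, so the count with more was near the share of all genes. The signalling receptor of interleukin 1, Il1r1, had 3 interactions with 47 contacts at day 6 and none in sham. Its decoy, Il1r2, had 62 contacts against 27 at day 6, log2 ratio -2.05 (-3.01 to -1.62). The co-receptor Il1rap had 2 interactions with 27 contacts at day 6 alone. Of the Tnf receptors, Tnfrsf1a had 82 and 406 contacts, log2 ratio 1.18 (0.86 to 1.57), and Tnfrsf1b had 635 and 610, log2 ratio -1.15 (-1.32 to -0.99). The lymphotoxin receptor gene Ltbr had 3 interactions with 40 contacts at day 6 alone. Il10ra had 598 and 599 contacts, log2 ratio -1.09, and Il10rb 291 and 364, log2 ratio -0.76. Il6ra had 199 and 585, log2 ratio 0.45, and the shared chain Il6st 386 and 489, log2 ratio -0.75. Lifr had 27 and 26, in 1 and 2 interactions, and Osmr had no interaction in either library.

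Genes for processing and release counted 6 with more, 1 with fewer and 1 neither, with a median log2 ratio of 1.29, against 39.1% with more, 10.3% with fewer and a median of 0.54 over all genes. Casp1, the protease that matures interleukin 1 beta, had 4 interactions with 60 contacts at day 6 and none in sham. Pycard, the inflammasome adaptor, had 166 contacts against 94 at day 6, log2 ratio -1.85 (-2.30 to -1.55). A further pair was picked after its values were seen. Nlrp3, the inflammasome sensor, had 52 and 269 contacts, log2 ratio 1.22 (0.84 to 1.73), and Zfp36, whose product destabilises the Tnf messenger RNA, had 29 and 567, log2 ratio 3.06 (2.65 to 3.78).

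Of 23 other cytokine genes of these families 13 had no interaction in either library, among them Ifng, Il12a, Il12b, Il33 and the 4 genes of the interleukin 36 family. Among 8 with at least 3 interactions 3 had more, 2 fewer and 3 neither, with a median log2 ratio of 0.55. Over all genes 39.1% had more and 10.3% fewer, with a median of 0.54. The count with more and the median were thus near those of all genes. Il27, whose protein pairs with that of Ebi3, had 5 interactions with 135 contacts at day 6 alone. Ctf1, the cardiotrophin gene, had 4 with 72 at day 6 alone. Csf2, a growth factor gene of myeloid cells, had 68 contacts against 16 at day 6, log2 ratio -2.74 (-4.07 to -2.38).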

How the data were processed

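The interactions of both libraries came from lists that the authors deposited, with 10 kb bins of mm10 (GRCm38). HiC-Pro 3.1.0 is named in the submitters' processing notes, and the sources used here do not name the caller. Per the file headers, each pair of bins has a contact count, a coverage count of each bin, a bias ratio (the coverage over 1 constant per library), a contact probability as a fraction, the expected contacts, a p-value and a q-value, which are all the authors' values. Both bins of each listed pair lie in a peak. Each listed pair spans 20 to 2000 kb and has a q-value under 0.001.

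Interactions were joined to genes by the RefSeq spans with 1 kb on each side. The log2 ratio used a prior of 5 contacts, scaled to each library, and was divided by the called contacts. Intervals are exact Poisson intervals for contacts and exact Clopper-Pearson intervals for shares, at 95%. With 1 library per condition no test between conditions was made. The assignment was checked against a direct search of real sham interactions for a sample of genes. The ratios were checked on simulated contact sums per gene with known folds. The calling of interactions was not part of these checks. The 10 genes and the lists of other genes were chosen with earlier results of these data known. The genes named from the lists were the 3 highest and the 3 lowest log2 ratios among those with at least 3 interactions, beside the receptors and the pair noted as picked after their values were seen. Alternatives were 3 other scalings, a stricter q-value, other gene spans and other priors, and 2 chosen after seeing the data (start site bins alone, and interactions of at most 1 Mb).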

Additional observations from a re-analysis of the deposited data

How the results depend on the processing

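Over all genes, those with fewer contacts numbered 995, and 186 with scaling by shared interactions, 79 with scaling by modelled contacts and 603 with start site bins alone. Those with more contacts numbered 3769, and 6389, 8094, 1875 (day 6 list at the length of the sham list) and 2221 (start site bins alone). Of the 10 cytokine genes 3 had fewer contacts, and 0 under scaling by shared interactions and 0 by modelled contacts. Those with more contacts numbered 1, and 4 and 5 under these scalings (66.3% and 84.0% of all genes). They numbered 2 (Osm and Lif) at a q-value under 1e-05 (47.6% of all genes) and 0 with gene ends alone (40.7%). The median log2 ratio of the cytokine genes, -0.25, turned to 0.81 and 1.48 under scaling by shared and by modelled contacts. It was -0.45 with lists of equal length, -0.62 at the stricter q-value, -0.63 with a flank of 5 kb and -0.64 with gene ends alone. Interactions called in both libraries numbered 6, and 3 with lists of equal length, 3 with start site bins alone and 14 with anchors within 1 bin. The ratio of Il6 turned to 0.13 and that of Tnf to 0.52 with scaling by modelled contacts, and that of Tnf to 0.036 with start site bins alone. The cause of these shifts was not tested, except that Tnf's start bin leaves out the bin shared with Ltb. The ratio of Ltb was below 0 and that of Lif above 0 in all 11 alternatives, but Ltb did not count as having fewer contacts with scaling by shared or modelled contacts, with a flank of 5 kb (-0.90) or, with too few interactions, at the stricter q-value. Tnf did not with lists of equal length (-0.80). The ratio of Il1a passed the limit for fewer contacts in 4 of them (-1.51 with lists of equal length, -1.67 at the stricter q-value, -1.03 with gene ends and -1.05 with interactions of at most 1 Mb). Start site bins and the 1 Mb limit were chosen after seeing the data. No paired analysis was possible because each group has 1 library, and no library could be left out. Interactions of 12 to 30 contacts carry wide counting intervals, and a pair absent from a list may lie just under its threshold.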

Other observations

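Some partner bins of the cytokine genes had their own changes over all of their interactions, beyond those with the 10 genes. They were chosen after their values were seen. The bin behind the Il1b start (129380001 to 129390000 on chromosome 2), which touches no coding gene, had 1 interaction with 73 contacts in sham and 7 with 213 at day 6. The bin at 129330001, between Il1a and Il1b, had none in sham and 6 with 145 at day 6. The Sirpa bin at 129590001 had 7 with 291 contacts in sham and 13 with 427 at day 6, with a relative coverage of 2.65 and 4.61. The F830045P16Rik bin at 129510001 had 10 with 419 in sham and 5 with 149 at day 6.

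On chromosome 11 the bin of Ewsr1 and Rhbdd3 had 4 interactions with 52 contacts in sham and 16 with 451 at day 6. The Dbnl bin had 4 with 66 and 11 with 347. On chromosome 17 the Nfkbil1 and Atp6v1g2 bin had 8 with 488 and 11 with 698, a ratio below that of the whole lists. These are values of 1 library per condition and have no replicate check.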
